A study of Mus musculus with 60 samples.

Results

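The genes of non-homologous end joining (NHEJ) described here are Xrcc6, Xrcc5, Prkdc, Dclre1c, Xrcc4, Lig4, Nhej1, Paxx, Poll and Polm. They are the rows of both count tables whose gene identifier maps to these symbols, 10 of the 56980 genes listed. All 10 were found, and all 10 passed the filter on low counts in both tables. NHEJ rejoins the ends of a broken DNA double strand directly, without a sister chromatid as template, and it can act in cells that are not dividing. The Ku ring, made of the proteins of Xrcc6 (Ku70) and Xrcc5 (Ku80), slides onto a broken end and recruits the kinase DNA-PKcs, the product of Prkdc. DNA-PKcs activates the nuclease Artemis (Dclre1c), the polymerases lambda (Poll) and mu (Polm) fill gaps, and the ligase of Lig4 with its partner XRCC4 seals the ends, with XLF (Nhej1) and PAXX helping to hold them together. Ercc1, the gene altered in this study, encodes a subunit of a nuclease that acts mainly in nucleotide excision repair and cross-link repair, and it is not among the 10.

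RNA was sequenced from mouse fibroblasts, of tail tip in all groups but 1 of skin, in 60 libraries, 3 for each of 20 groups. The reprogramming table held 36 libraries of 12 groups. 4F.D/KO cells (4Fj+/- rtTA+/- Ercc1 d/-, from 8 week old males) carried a truncated Ercc1 allele over a null allele, and 4F.WT cells (4FJ(+/-) OCT4-GFP, from 22 week old females) carried intact Ercc1. In both lines doxycycline switches on a cassette of Oct4, Klf4, Sox2 and c-Myc in the Col1a1 locus, in 4F.D/KO through the reverse transactivator at ROSA26. Each line was sampled after 0, 2 or 4 days of doxycycline at 2 µg/ml, without or with VC, which is ascorbic acid at 50 µg/ml with the GSK3 inhibitor CHIR at 3 µM. The inhibitor table held 24 libraries of 8 groups. D/KO cells (Ercc1 d/-, 4 week old females, no reprogramming cassette) were controls or received Repsox, Vactosertib, DMH-1 or A83-01 for 3 days. The other groups of that table were Ercc1(+/+) WT tail tip cells and WT skin cells from 14 week old females, and 4F.WT cells whose treatment is labelled TGFB, called 4F.WT TGFB here, with no control of their own in that table. Repsox, Vactosertib and A83-01 inhibit the TGFb receptor kinase ALK5, and DMH-1 inhibits the BMP receptor kinase ALK2. The authors describe Vactosertib as an inhibitor of ALK2 as well. Genotype and age differed together in both tables, and sex and line with them in the reprogramming table, so their effects cannot be told apart. No source used here says that the libraries of a group came from separate animals or cultures, so p-values measure the spread between libraries, which may be technical.

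The reprogramming libraries held 16538374 to 18484951 counts each and the inhibitor libraries 17102639 to 30599138. Ercc1 was at 8.04 to 18.6 CPM (counts scaled to library size with TMM factors) in 4F.D/KO and at 16.9 to 29.1 in 4F.WT libraries of the reprogramming table. In the inhibitor table the ranges overlapped widely, 13.2 to 23.5 CPM in D/KO and 13.3 to 47.8 in WT libraries. The truncated allele can still be transcribed, so this level does not check the label, but Xist and Ddx3y followed the labelled sexes in every library. The summed level of 10 fibroblast markers was between 24400 and 243000 CPM in the reprogramming table. Immune markers summed to at most 35.2 CPM there, with Cd3e at 0. Epithelial markers summed to between 3.09 and 5.13 CPM at 4F.D/KO day 0, to between 481 and 594 at day 4 plus VC, where Krt15 was at 0, and to between 10.8 and 13.1 at 4F.WT day 4 plus VC. In bulk RNA, fewer cells of a type and less RNA per cell cannot be told apart.

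Per length of exon, Xrcc5 and Paxx had the highest medians of the 10 over the libraries of each table, and Dclre1c had the lowest mean in all 20 groups. Paxx ranked 1 or 2 in 13 groups, 3 or 4 in the 6 VC groups and 6 in the 4F.WT TGFB group. In 4F.D/KO at day 0, Xrcc5 was at 7.7 CPM per kilobase, Paxx at 5.5, Poll at 4.56 and Xrcc6 at 4.19. Polm at 2.52, Lig4 at 2.48, Nhej1 at 2.22, Xrcc4 at 2.15 and Prkdc at 1.78 followed, and Dclre1c was last at 0.231. Neighbours in that order overlapped between libraries except Xrcc5 and Paxx, Xrcc6 and Polm, and Prkdc and Dclre1c. In 4F.WT at day 0 the first 4 genes kept the same order, from Xrcc5 at 9.2 to Xrcc6 at 4.51, and Dclre1c was again last at 0.651. Dclre1c had 22 to 161 counts a library in the reprogramming table and Nhej1 40 to 101, the fewest of the 10.

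**Figure D1:**
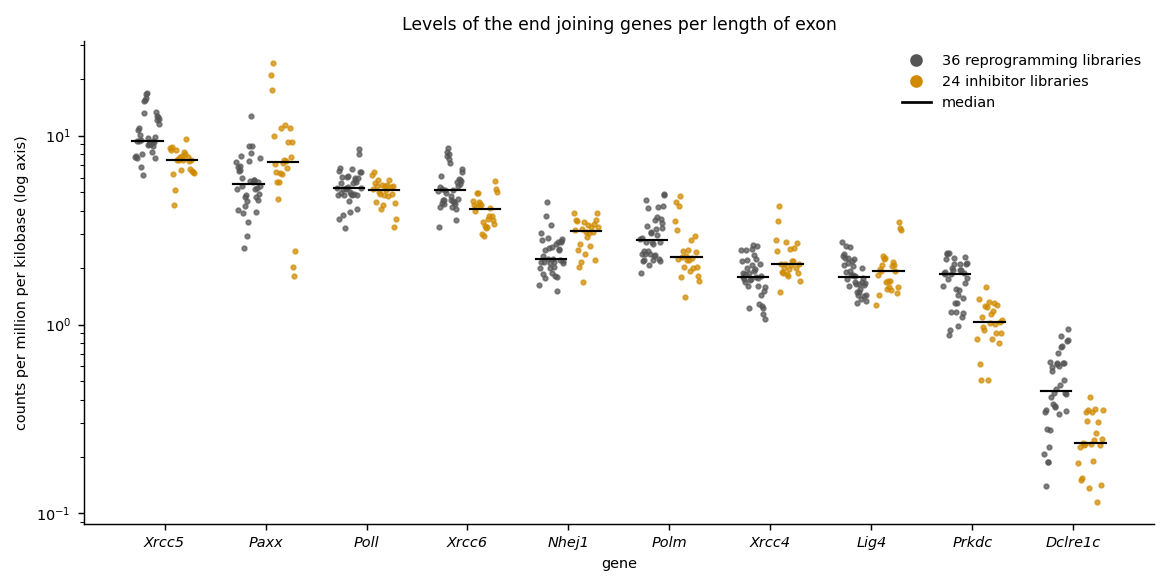
Level of each NHEJ gene in every library in TMM-scaled CPM per kilobase of exon, on a log axis, with a line at the median of the 36 reprogramming and of the 24 inhibitor libraries. Xrcc5 has the highest median in both tables, 9.42 and 7.44, and Dclre1c the lowest, 0.446 and 0.236.

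The genes lie on 8 chromosomes of GRCm39, the build of the count tables. Xrcc5 (ENSMUSG00000026187) spans chr1:72346586-72434111 on the plus strand with 21 exon blocks, and Nhej1 lies at chr1:75006298-75101844 on the minus strand. Xrcc6 (ENSMUSG00000022471) spans chr15:81872036-81924286 on the plus strand, and Prkdc (ENSMUSG00000022672) spans chr16:15455730-15660099 on the plus strand with 86 exon blocks, the most of the 10. Polm (ENSMUSG00000020474) lies at chr11:5777860-5788016 on the minus strand with 9 exon blocks. Dclre1c (ENSMUSG00000026648, chr2:3425168-3465167) shares 357 exonic bases with Suv39h2 on the opposite strand, Xrcc4 (chr13:89922146-90237727) shares 112 with Tmem167, and Xrcc6 shares 344 with Desi1. Without stated strandedness, reads in these stretches, at most 7.7% of a gene's exons, cannot be told apart from those of the partner gene. Lig4 lies at chr8:10019049-10027686, Paxx at chr2:25345153-25351106 and Poll at chr19:45540714-45548970, all on the minus strand.

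Of the 10 genes, 8 have a promoter in the RefSeq table, which is on GRCm38.p6. The 250 bases before the start are shown for the Ku genes, both called higher in 4F.D/KO plus VC, and for Polm, called lower there. Capitals mark matches, on either strand, to a CCAAT box (CCAAT), a GC box (GGGCGG), an E-box (CACGTG) or an E2F site (TTTCCCGC), and no matches overlap. The windows are chr1:72307171-72307420 on the plus strand for Xrcc5, chr15:82016119-82016368 on the plus strand for Xrcc6 and chr11:5838017-5838266 on the minus strand for Polm, each written 5′ to 3′.
Xrcc5: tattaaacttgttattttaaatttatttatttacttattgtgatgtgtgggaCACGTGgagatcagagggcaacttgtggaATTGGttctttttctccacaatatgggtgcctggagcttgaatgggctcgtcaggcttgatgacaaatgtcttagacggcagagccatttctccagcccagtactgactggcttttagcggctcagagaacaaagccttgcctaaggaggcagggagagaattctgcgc
Xrcc6: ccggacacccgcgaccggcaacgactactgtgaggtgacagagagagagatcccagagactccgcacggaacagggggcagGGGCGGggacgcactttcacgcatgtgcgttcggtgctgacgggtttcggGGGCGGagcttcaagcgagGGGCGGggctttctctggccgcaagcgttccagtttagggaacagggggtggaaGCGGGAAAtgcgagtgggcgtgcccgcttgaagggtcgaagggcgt
Polm: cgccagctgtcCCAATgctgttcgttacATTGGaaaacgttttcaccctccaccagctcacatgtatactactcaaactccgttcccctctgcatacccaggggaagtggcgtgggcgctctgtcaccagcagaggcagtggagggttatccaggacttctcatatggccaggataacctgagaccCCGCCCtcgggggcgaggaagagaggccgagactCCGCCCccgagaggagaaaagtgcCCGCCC
The Ku promoters differed from each other in these features. The Xrcc5 window has 44.8% GC and 5 CpG sites, with an E-box and a CCAAT box, whereas the Xrcc6 window has 65.2% GC and 25 CpG sites, with 3 GC boxes and an E2F site. The Polm window has 59.2% GC and 13 CpG sites, with 2 CCAAT boxes and 3 GC boxes. Over all 32851 promoters the median GC content was 52.4%, and 33.8% held a CCAAT box, 32.7% a GC box, 6.02% an E-box and 0.895% the E2F letters. A GC box was found in 7 of the 9 promoters listed for the 10 genes.

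Whether reprogramming changed these genes was first read within each line, against day 0 with the same VC state. In 4F.D/KO without VC, Xrcc5 rose at day 2 and day 4 and Xrcc6 at day 2, and with VC both Ku genes rose at both days, Xrcc5 by 2.35-fold at day 4 plus VC. Prkdc and Poll also rose with VC, and Polm fell. In 4F.WT the same VC comparisons called Xrcc5, Prkdc and Polm higher at both days, and at day 2 plus VC also Poll higher and Xrcc4 lower. Lig4, Nhej1, Paxx and Dclre1c passed the test in none of these 8 comparisons, and Xrcc4 in 1. A gene was called at a Benjamini-Hochberg adjusted p under 0.05 over all genes tested, by edgeR's quasi-likelihood test. At 4F.D/KO day 2, 3 of the 10 were higher and 0 lower, against 14.3% and 13.2% of all genes tested. At day 4, 1 was higher and 0 lower, against 18.3% and 18.7%. At day 2 plus VC, 4 were higher and 1 lower, against 23.8% and 23.6%, and at day 4 plus VC again 4 and 1, against 27.9% and 26.2% (5 and 0 with scaling by library totals). At 4F.WT day 2, 0 were called in either direction by edgeR and by DESeq2, against 6.26% higher and 4.3% lower, with 1 gene, Polm, at an unadjusted p under 0.05. At 4F.WT day 4, 2 were higher and 0 lower, against 11.7% and 12.8%. At day 2 plus VC, 4 were higher and 1 lower, against 13.8% and 13.7% (4 and 0 with library totals), and at day 4 plus VC, 3 and 0, against 22.7% and 22% (7 and 0 with library totals). The shares above are those of the main fit. With library totals, 9631 of 15832 genes were called at 4F.D/KO day 4 plus VC, with a median over all genes of 0.38. At 4F.WT day 2 plus VC that scaling called 4766 (median 0.11), and at day 4 plus VC 8268 (median 0.31). In the main fit, the median log2 fold change of the 10 lay between -0.1 and 0.34 over these comparisons, and that of all genes between -0.01 and 0.03. The comparisons of a line with the same VC state share their day 0 libraries.

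**Figure D2:**
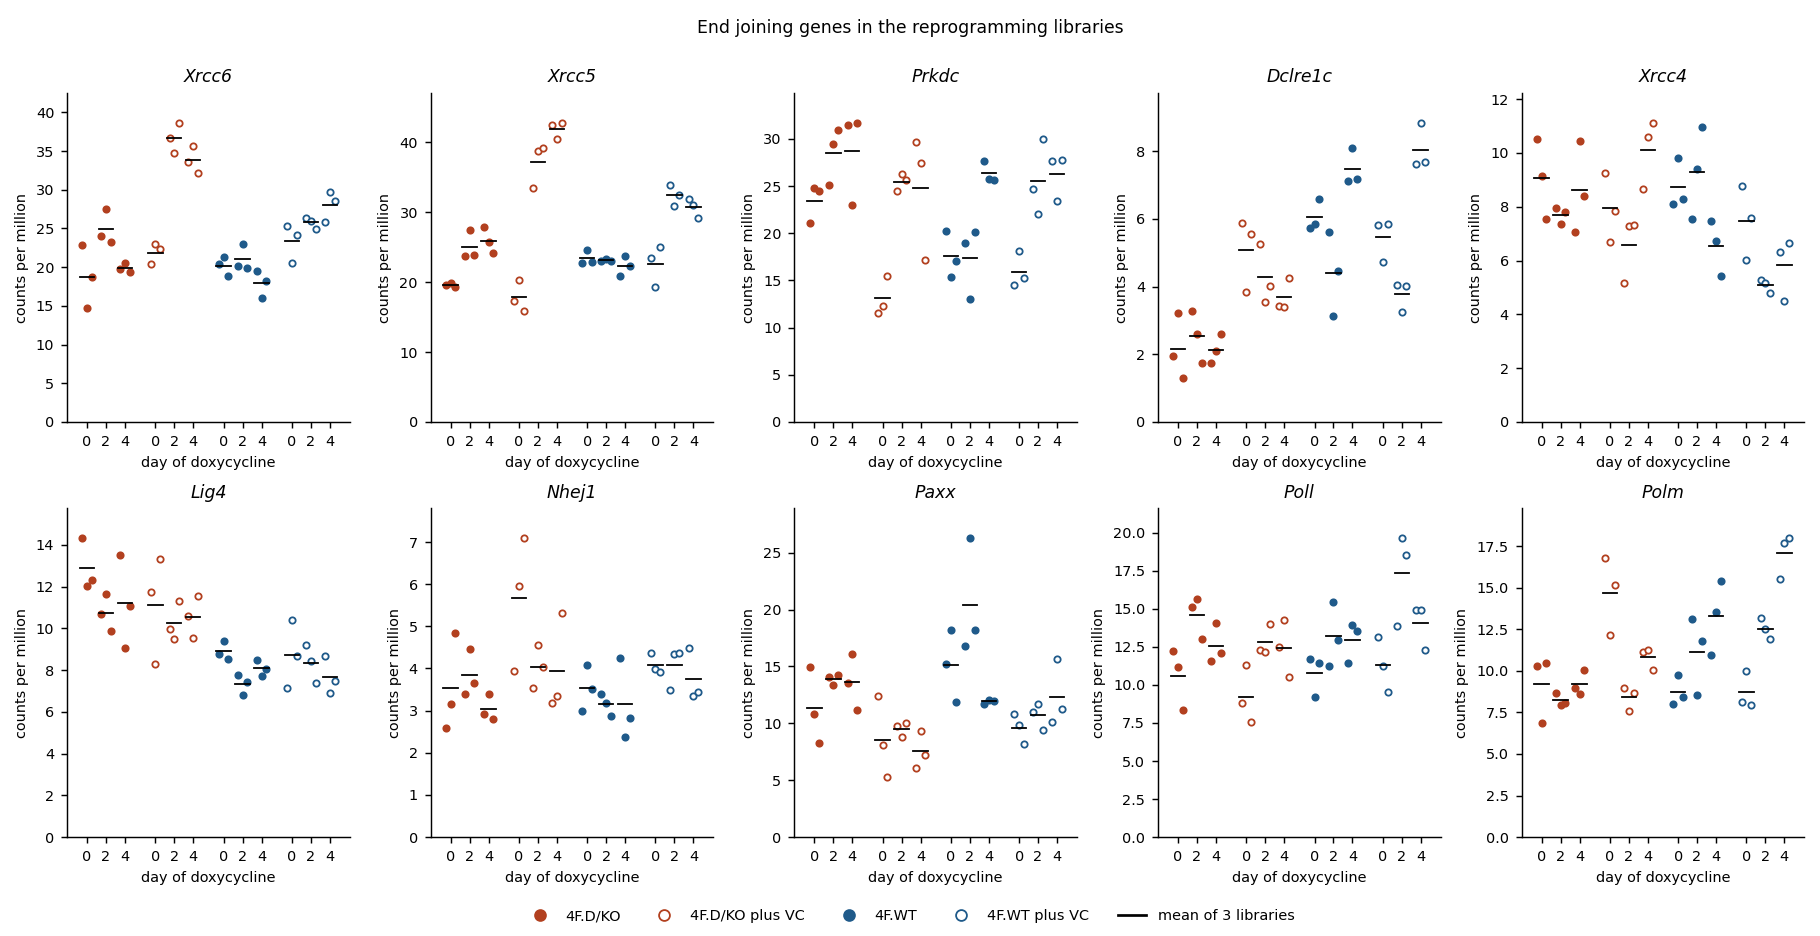
TMM-scaled CPM of each NHEJ gene in the 36 reprogramming libraries by day of doxycycline, line (4F.D/KO red, 4F.WT blue) and VC (open circles), with a line at the mean of 3 libraries. The 3 4F.D/KO day 4 plus VC libraries of Xrcc5 lie between 40.45 and 42.77, above every other library, and Dclre1c is lowest in 4F.D/KO without VC.

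Xrcc5, the larger Ku subunit, was at 19.6, 19.94 and 19.33 CPM at 4F.D/KO day 0, at 23.75, 27.45 and 23.88 at day 2 and at 27.96, 25.81 and 24.12 at day 4. Every day 2 and day 4 library was above every day 0 library. The log2 fold change was 0.35 ± 0.105 (SE, edgeR adjusted p = 0.0106) at day 2 and 0.40 ± 0.105 (edgeR adjusted p = 0.00214) at day 4. The day 2 call was lost without day 2 replicate 2 (edgeR adjusted p = 0.0883) and without the low-count filter (edgeR adjusted p = 0.0995). With VC, Xrcc5 was at 17.29, 20.34 and 15.86 CPM at day 0, at 33.52, 38.72 and 39.17 at day 2 and at 42.5, 40.45 and 42.77 at day 4. The groups were far apart, and the log2 fold change was 1.06 ± 0.106 (edgeR adjusted p = 1.73e-10) at day 2 and 1.23 ± 0.106 (edgeR adjusted p = 2.31e-12) at day 4. In 4F.WT without VC the day 0 libraries at 22.76, 24.65 and 22.93 CPM overlapped those of day 2 and day 4, and the changes were -0.02 and -0.07. With VC they went from 23.5, 19.35 and 25.03 at day 0 to 33.91, 30.96 and 32.41 at day 2 and 31.9, 31.05 and 29.21 at day 4, with no overlap. These log2 rises were 0.52 ± 0.104 (edgeR adjusted p = 1.80e-04) and 0.44 ± 0.104 (edgeR adjusted p = 7.08e-04). Ordered by mean level, the 4 doxycycline plus VC groups came first, from 41.9 to 30.7 CPM, and 4F.D/KO day 0 and day 0 plus VC came last, at 19.6 and 17.8. Of the neighbours in that order, the groups did not overlap between 4F.D/KO day 4 plus VC and day 2 plus VC, 4F.WT day 4 plus VC and 4F.D/KO day 4, and 4F.WT day 4 and 4F.D/KO day 0.

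Xrcc6, the other Ku subunit, was at 20.39, 22.97 and 22.31 CPM at 4F.D/KO day 0 plus VC, at 36.71, 34.75 and 38.61 at day 2 plus VC and at 33.57, 35.71 and 32.13 at day 4 plus VC. All 6 doxycycline libraries were above the day 0 libraries. The log2 fold changes were 0.75 ± 0.119 (edgeR adjusted p = 2.72e-06) and 0.63 ± 0.119 (edgeR adjusted p = 3.09e-05). Without VC, Xrcc6 was at 22.89, 14.66 and 18.68 CPM at day 0 and at 23.98, 27.45 and 23.23 at day 2, a rise of 0.41 ± 0.120 (edgeR adjusted p = 0.00906). That call was lost without day 0 replicate 2, the lowest library, or without day 2 replicate 2, the highest, with edgeR adjusted p up to 0.126, and in a fit of only the groups compared (edgeR adjusted p = 0.0748). At day 4 its libraries were back at 19.76, 20.53 and 19.37 CPM, within the day 0 range. In 4F.WT, Xrcc6 passed the test in none of the 4 comparisons, with its largest log2 fold change, 0.26 (edgeR adjusted p = 0.0683), at day 4 plus VC, where it was at 25.86, 29.74 and 28.56 CPM against 25.34, 20.58 and 24.16. It was called there with library totals (0.55, edgeR adjusted p = 0.000173) and with at least 10 counts in every library (0.28, edgeR adjusted p = 0.0438), and against day 0 without VC it was called higher at day 2 plus VC (0.35, edgeR adjusted p = 0.0183) and day 4 plus VC (0.48, edgeR adjusted p = 0.00151).

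The balance of the subunits is given as a description, without a test. Per length, the ratio of Xrcc5 to Xrcc6 at 4F.D/KO plus VC was 1.43 ± 0.161 (SD, n = 3) at day 0, 1.78 ± 0.176 at day 2 and 2.18 ± 0.177 at day 4. In 4F.WT plus VC it was 1.7 ± 0.104, 2.21 ± 0.105 and 1.93 ± 0.204. Without VC the ratio was 1.9 ± 0.448, 1.77 ± 0.0343 and 2.29 ± 0.166 in 4F.D/KO, and 2.04 ± 0.0887, 1.94 ± 0.141 and 2.22 ± 0.367 in 4F.WT. The 4F.D/KO day 0 libraries without VC, at 1.5 to 2.39, overlapped those of day 4 plus VC, at 1.99 to 2.34. Across the 12 reprogramming groups the mean log2 levels of Xrcc5 and Xrcc6 correlated at r = 0.847, a description over groups that share lines and day 0 cells.

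**Figure D3:**
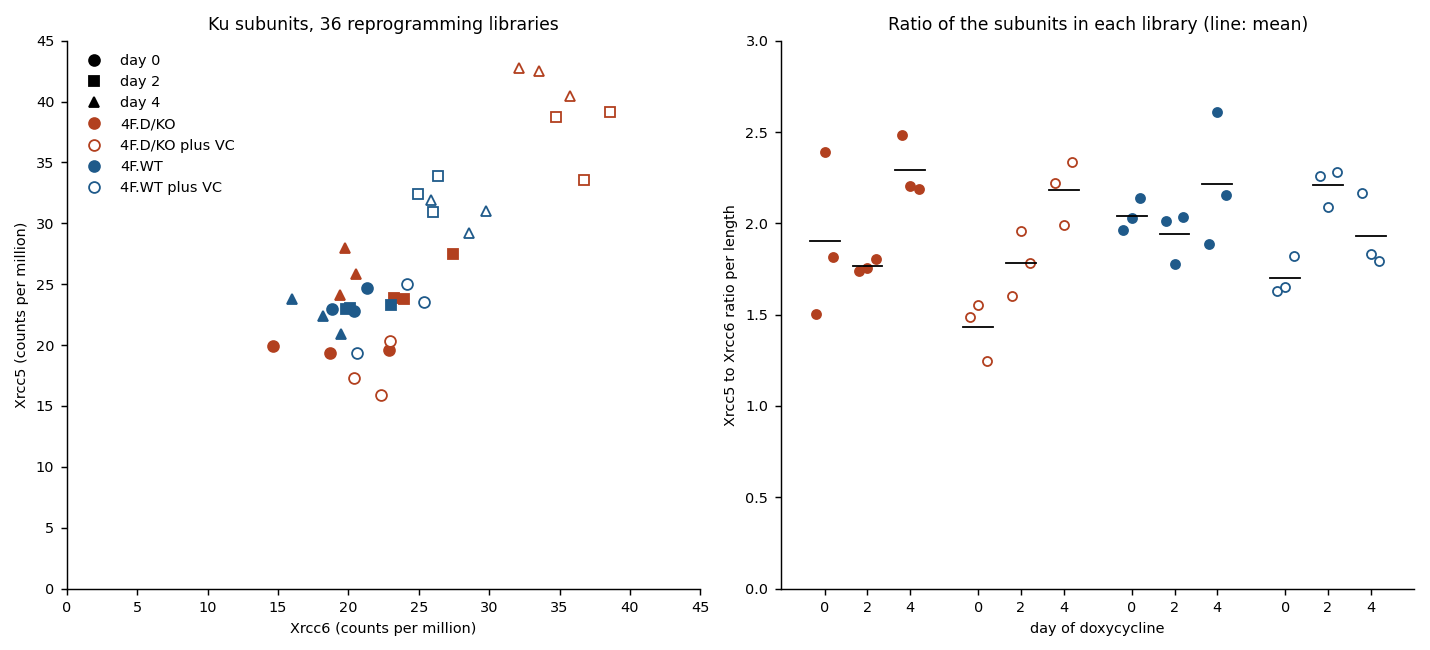
Left, Xrcc5 against Xrcc6 in the 36 reprogramming libraries, both in TMM-scaled CPM. Right, the Xrcc5 to Xrcc6 ratio per length of exon in each library by day of doxycycline, with a line at the group mean, which runs from 1.43 at 4F.D/KO day 0 plus VC to 2.29 at 4F.D/KO day 4.

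Prkdc, which encodes the catalytic kinase DNA-PKcs, was at 11.59, 12.28 and 15.44 CPM at 4F.D/KO day 0 plus VC, at 24.43, 26.23 and 25.63 at day 2 plus VC and at 29.71, 27.41 and 17.17 at day 4 plus VC. No doxycycline library reached down to the day 0 plus VC libraries, and the log2 fold changes were 0.96 ± 0.175 (edgeR adjusted p = 2.31e-05) and 0.92 ± 0.175 (edgeR adjusted p = 3.14e-05). The day 0 level differed with VC: without it Prkdc was at 21.08, 24.75 and 24.52 CPM, and against those libraries the changes were 0.12 (edgeR adjusted p = 0.6) and 0.08 (edgeR adjusted p = 0.728). In 4F.WT, Prkdc was at 20.27, 15.41 and 17.06 CPM at day 0 and at 27.63, 25.7 and 25.67 at day 4, a rise of 0.58 ± 0.169 (edgeR adjusted p = 0.00975) that missed the threshold without day 0 replicate 2 (edgeR adjusted p = 0.062). With VC it rose by 0.68 ± 0.172 at day 2 (edgeR adjusted p = 0.00242) and by 0.72 ± 0.171 at day 4 (edgeR adjusted p = 7.86e-04). In 4F.WT the groups with and without VC started from overlapping levels, 14.47 to 18.12 and 15.41 to 20.27 CPM.

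Dclre1c, the gene of the Artemis nuclease, was called in none of the time comparisons. At 4F.WT day 4 plus VC it was at 7.613, 8.833 and 7.692 CPM, above the 5.813, 4.731 and 5.842 of day 0 plus VC, with a log2 fold change of 0.56 (edgeR adjusted p = 0.0515). That rise was called with library totals (0.85, edgeR adjusted p = 0.00421), with DESeq2 (0.55, adjusted p = 0.0382), with at least 10 counts in every library (edgeR adjusted p = 0.0384) and in a fit of only the groups compared (edgeR adjusted p = 0.0199). At 4F.D/KO day 4 plus VC it was at 3.436, 3.399 and 4.266 CPM against 5.892, 3.841 and 5.543, overlapping groups with a change of -0.46 (edgeR adjusted p = 0.115, or 0.0483 without day 0 plus VC replicate 2). Against day 0 without VC, where Dclre1c was at 1.934, 3.226 and 1.297 CPM, the same day 4 plus VC libraries were higher by a log2 value of 0.78 (edgeR adjusted p = 0.0133) and those of day 2 plus VC by 0.99 (edgeR adjusted p = 0.00217). The direction for this gene in 4F.D/KO therefore turns with the day 0 group used. In 4F.WT it kept its direction against day 0 without VC, at 0.41 (edgeR adjusted p = 0.167) at day 4 plus VC and at -0.69 at day 2 plus VC, where it was then called lower (edgeR adjusted p = 0.024).

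Among the ligation genes, Lig4, the catalytic ligase, had log2 fold changes between -0.28 and -0.07 in the 8 time comparisons, and none was called. Its partner Xrcc4 was lower at 4F.WT day 2 plus VC, at 5.273, 5.169 and 4.804 CPM against 8.783, 6.021 and 7.568 at day 0 plus VC. The groups did not overlap and the log2 fold change was -0.55 ± 0.199 (edgeR adjusted p = 0.0349), but of 6 fits that each left out 1 library only the one without day 0 plus VC replicate 2 kept the call, and without any other library the edgeR adjusted p went up to 0.187. The call was also lost with library totals (-0.42, edgeR adjusted p = 0.113), without the low-count filter (edgeR adjusted p = 0.0751) and in a fit of only the groups compared (edgeR adjusted p = 0.0527). At 4F.D/KO day 4 plus VC, Xrcc4 was at 8.669, 10.59 and 11.11 CPM against 9.258, 6.703 and 7.859 (log2 fold change 0.35, edgeR adjusted p = 0.123, or 0.70 and 0.00198 with library totals). Against day 0 without VC, Xrcc4 was also called lower at 4F.D/KO day 2 plus VC (-0.46, edgeR adjusted p = 0.0484) and at 4F.WT day 4 plus VC (-0.58, edgeR adjusted p = 0.0149). Nhej1, which encodes the filament protein XLF, had changes between -0.52 and 0.12. Its lowest, at 4F.D/KO day 4 plus VC, had an edgeR adjusted p of 0.0729, down to 0.0147 without day 0 plus VC replicate 1 or day 4 plus VC replicate 3, and the libraries overlapped. At day 2 plus VC it was -0.48 (edgeR adjusted p = 0.104, or 0.0301 without day 0 plus VC replicate 1). Paxx, whose protein binds Ku, had changes between -0.34 and 0.44, none called. It was called lower at 4F.D/KO day 4 plus VC against day 0 without VC (-0.59, edgeR adjusted p = 0.0329) and higher at 4F.WT day 4 plus VC with library totals (0.65, edgeR adjusted p = 0.0213). A fit of only the groups compared called Xrcc4 (-0.4, edgeR adjusted p = 0.0433) and Paxx (-0.33, edgeR adjusted p = 0.0498) lower at 4F.WT day 4. The highest Paxx library, 26.26 CPM, was a 4F.WT day 2 library whose group companions were at 16.81 and 18.21.

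The gap-filling polymerases moved in opposite directions in 4F.D/KO plus VC, and both rose at 4F.WT day 2 plus VC. Poll was at 8.805, 11.3 and 7.578 CPM at 4F.D/KO day 0 plus VC and at 12.27, 12.14 and 13.99 at day 2 plus VC, a rise of 0.47 ± 0.174 (edgeR adjusted p = 0.0239). Poll was also higher at 4F.D/KO day 2 (0.46 ± 0.170, edgeR adjusted p = 0.0396), at day 4 plus VC (0.43 ± 0.174, edgeR adjusted p = 0.0356, groups overlapping) and at 4F.WT day 2 plus VC (0.62 ± 0.169, edgeR adjusted p = 0.0052). Against 4F.D/KO day 0 without VC, Poll changed by 0.27 (edgeR adjusted p = 0.196) at day 2 plus VC and by 0.23 (edgeR adjusted p = 0.271) at day 4 plus VC. The 4F.D/KO calls rested on single libraries. The day 2 call was lost without day 0 replicate 2 or 3 or day 2 replicate 1 or 2 (edgeR adjusted p up to 0.228), with DESeq2 size factors (edgeR adjusted p = 0.0516), without the low-count filter (edgeR adjusted p = 0.0622) and in a fit of only the groups compared (edgeR adjusted p = 0.0636). With VC, the calls at both days were lost without day 0 plus VC replicate 1 or 3, that of day 2 also without its replicate 3 (edgeR adjusted p up to 0.14) and that of day 4 also without its replicate 1 or 2 (edgeR adjusted p up to 0.187), without the low-count filter (edgeR adjusted p = 0.06) and in a fit of only the groups compared (edgeR adjusted p = 0.0942). At 4F.WT day 4 plus VC, Poll was called higher with library totals (0.59, edgeR adjusted p = 0.004). Polm, which encodes the polymerase able to join ends with little pairing, went down in 4F.D/KO with VC and up in 4F.WT. It was at 16.77, 12.13 and 15.16 CPM at 4F.D/KO day 0 plus VC, at 8.974, 7.578 and 8.674 at day 2 plus VC and at 11.15, 11.25 and 10.06 at day 4 plus VC. The groups did not overlap, and the log2 fold changes were -0.81 ± 0.165 (edgeR adjusted p = 1.17e-04) and -0.44 ± 0.162 (edgeR adjusted p = 0.0208), the latter lost without day 0 plus VC replicate 1 or 3 or day 4 plus VC replicate 3 (edgeR adjusted p up to 0.123), without the low-count filter (edgeR adjusted p = 0.0569) or in a fit of only the groups compared (edgeR adjusted p = 0.0522), and at -0.08 with library totals. In 4F.WT, Polm went from 8.151, 10.01 and 7.966 CPM at day 0 plus VC to 13.18, 12.54 and 11.92 at day 2 plus VC and to 15.52, 17.72 and 17.97 at day 4 plus VC. All 6 doxycycline libraries were higher, with log2 fold changes of 0.53 ± 0.166 (edgeR adjusted p = 0.0153) and 0.97 ± 0.164 (edgeR adjusted p = 8.49e-06), and day 4 without VC was 0.60 ± 0.163 above day 0 (edgeR adjusted p = 0.00563, or 0.052 without day 4 replicate 3). The day 2 plus VC call was lost without day 0 plus VC replicate 1 or 3 or day 2 plus VC replicate 1 (edgeR adjusted p up to 0.0712). Against 4F.D/KO day 0 without VC, at 10.32, 6.863 and 10.49 CPM, Polm changed by -0.13 (edgeR adjusted p = 0.549) and 0.23 (edgeR adjusted p = 0.246) at day 2 and day 4 plus VC, so the 4F.D/KO fall holds only against the VC day 0 group.

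**Figure D4:**
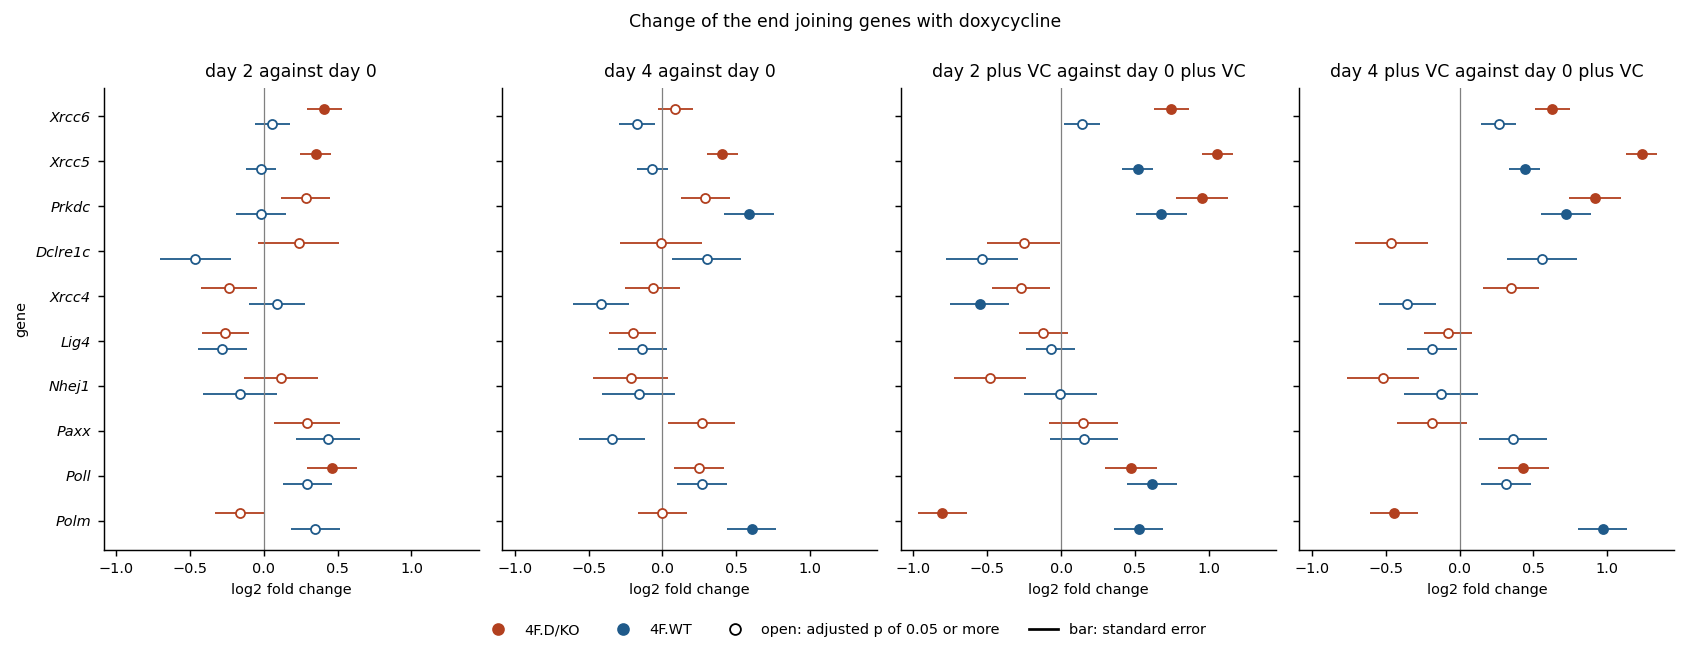
Log2 fold change of each NHEJ gene against day 0 of the same line and VC state, with bars of 1 standard error, filled where the edgeR adjusted p is under 0.05. Xrcc5 in 4F.D/KO runs from 0.35 at day 2 to 1.23 at day 4 plus VC, and Polm at day 4 plus VC is at -0.44 in 4F.D/KO and 0.97 in 4F.WT.

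The change in 4F.D/KO minus the change in 4F.WT was tested as an interaction. At day 2, 0 of the 10 differed by edgeR and by DESeq2, against 3.43% higher and 3.11% lower of all genes, with 3 (Xrcc6, Xrcc5 and Polm) at an unadjusted p under 0.05. At day 4, 1 was higher and 0 lower, against 7.27% and 7.04%: Xrcc5 changed by 0.47 ± 0.148 more in 4F.D/KO (edgeR adjusted p = 0.0263), a call lost without 4F.D/KO day 4 replicate 1 or 2, 4F.WT day 0 replicate 2 or 4F.WT day 4 replicate 1 or 3 (edgeR adjusted p up to 0.0878) or without the low-count filter (edgeR adjusted p = 0.165). Polm, at -0.61 there (edgeR adjusted p = 0.0778), was called without 4F.D/KO day 0 replicate 2 or 4F.WT day 4 replicate 1 (edgeR adjusted p down to 0.0203). At day 2 plus VC, 2 were higher and 1 lower, against 6.86% and 7%. Xrcc6 changed by 0.60 ± 0.169 more in 4F.D/KO (edgeR adjusted p = 0.0126) and Xrcc5 by 0.54 ± 0.148 (edgeR adjusted p = 0.0107, or 0.0502 without 4F.WT day 0 plus VC replicate 3), and Polm differed by -1.33 ± 0.234 (edgeR adjusted p = 9.73e-05). Without the low-count filter the Xrcc6 and Xrcc5 calls were lost (edgeR adjusted p = 0.0524 and 0.0963), that of Xrcc5 also in a fit of only the groups compared (edgeR adjusted p = 0.065). At day 4 plus VC, 2 were higher and 2 lower, against 13.9% and 15.5%. Xrcc5 differed by 0.79 ± 0.148 (edgeR adjusted p = 8.70e-05), Xrcc4 by 0.70 ± 0.273 (edgeR adjusted p = 0.0499), Dclre1c by -1.02 ± 0.342 (edgeR adjusted p = 0.0218) and Polm by -1.41 ± 0.231 (edgeR adjusted p = 1.31e-05). The Dclre1c call was lost without 4F.D/KO day 0 plus VC replicate 1, 4F.D/KO day 4 plus VC replicate 2, 4F.WT day 0 plus VC replicate 2 or 4F.WT day 4 plus VC replicate 2 (edgeR adjusted p up to 0.0689). The Xrcc4 call was kept in 4 of 12 fits that each left out 1 library, those without 4F.D/KO day 0 plus VC or day 4 plus VC replicate 1, 4F.WT day 0 plus VC replicate 2 or 4F.WT day 4 plus VC replicate 3, and its edgeR adjusted p went up to 0.159. It was also lost without the low-count filter (edgeR adjusted p = 0.0967) and in a fit of only the groups compared (edgeR adjusted p = 0.0886). For Prkdc, which rose with VC in both lines, the difference at day 4 plus VC was 0.20, with a 95% interval from -0.30 to 0.69. An alternative chosen after seeing the data took day 0 without VC as the baseline of both plus VC differences. Polm then differed by -0.65 (edgeR adjusted p = 0.0439) at day 2 plus VC and by -0.73 (edgeR adjusted p = 0.0199) at day 4 plus VC, smaller than with the VC baseline. Dclre1c turned to 0.37 (edgeR adjusted p = 0.515) at day 4 plus VC and was called higher at day 2 plus VC, at 1.68 (edgeR adjusted p = 0.000739). Xrcc5 differed by 0.45 (edgeR adjusted p = 0.024) and 0.70 (edgeR adjusted p = 0.000429). Prkdc turned from 0.28 to -0.42 (edgeR adjusted p = 0.227) at day 2 plus VC and from 0.20 to -0.50 (edgeR adjusted p = 0.137) at day 4 plus VC. Xrcc6 differed by 0.62 (edgeR adjusted p = 0.00732) at day 2 plus VC and Xrcc4 by 0.74 (edgeR adjusted p = 0.0445) at day 4 plus VC.

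Against day 0 plus VC, genes of cycling cells moved in opposite directions in the lines. Of 18, 18 were higher at 4F.D/KO day 4 plus VC, with a median log2 fold change of 1.08, while 10 were lower and 0 higher at 4F.WT day 4 plus VC, with a median of -0.65. Of all genes tested, 27.9% were higher and 26.2% lower in the 4F.D/KO comparison, and 22.7% and 22% in that of 4F.WT. Against day 0 without VC, 18 were higher at 4F.D/KO day 4 plus VC (median 1.28) and 11 were higher and 0 lower at 4F.WT day 4 plus VC (median 0.61). In 4F.WT their summed level was 170 to 195 CPM at day 0, 398 to 452 at day 0 plus VC and 317 to 340 at day 4 plus VC. In 4F.D/KO it was 321 to 406, 393 to 412 and 903 to 988. Without VC, 12 of the 18 were higher and 0 lower at 4F.D/KO day 2, with a median of 0.45 and a summed level of 509 to 647 CPM, and 2 were higher at day 4, with a median of 0.00. Of all genes, 14.3% were higher and 13.2% lower at day 2, and 18.3% and 18.7% at day 4. Summed fibroblast markers went from 176000 to 243000 CPM at 4F.D/KO day 0 plus VC to 24400 to 25000 at day 4 plus VC, with 8 of 10 lower and 1 higher, and from 70400 to 111000 at day 0 to 42600 to 44500 at day 2 and 28600 to 30400 at day 4. In 4F.WT with VC they went from 148000 to 163000 to 52000 to 61400 at day 4, with 7 lower and 2 higher. From day 0 plus VC to day 4 plus VC, endothelial markers went from 180 to 217 CPM to 378 to 509 in 4F.D/KO and from 4.67 to 7.08 to 98.1 to 116 in 4F.WT, where Kdr was at 0 at day 4. Muscle markers went from 42.3 to 58.3 CPM to 3.7 to 5.4 in 4F.D/KO and from 40.3 to 49.1 to 9.88 to 13.2 in 4F.WT, with Myod1 and Myog at 0. The share of counts from mitochondrial genes went from 0.469 to 1.05% to 1.34 to 2.2% in 4F.D/KO with VC, from 0.257 to 0.722% at day 0 to 1.1 to 1.42% at day 4 without VC, and from 0.919 to 0.989% to 1.61 to 2.32% in 4F.WT with VC. From day 0 to day 4 without VC in 4F.WT, this share went from 0.888 to 1.05% to 1.47 to 1.58%. There endothelial markers went from 14.4 to 17.2 CPM to 95.3 to 95.7, and fibroblast markers from 46300 to 47800 to 39100 to 40700. In 4F.D/KO without VC, endothelial markers went from 512 to 599 CPM to 302 to 327, and Schwann cell markers from 3.77 to 5.69 to 7.88 to 9.88. The part of the cycling genes, the markers and the mitochondrial share in the Ku, Prkdc and polymerase changes was not tested.

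Neighbouring pathways were read from lists with the same fits. At 4F.D/KO day 4 plus VC, the 8 tested NHEJ accessory genes, which trim or prepare ends, had a median log2 fold change of 0.12, and 1, not named here, was higher and 0 lower. Over all genes tested 27.9% were higher and 26.2% lower. Aplf (0.42, edgeR adjusted p = 0.0571) and the helicase gene Wrn (0.35, edgeR adjusted p = 0.124) were not called. Of 12 genes of repair pathway choice, 7 were higher and 0 lower, with a median of 0.66, led by Rif1 (2.13, edgeR adjusted p = 8.41e-09), the ubiquitin ligase gene Rnf168 (0.76, edgeR adjusted p = 1.34e-05) and Trp53bp1 (0.72, edgeR adjusted p = 2.31e-05). The products of Rif1 and Trp53bp1 restrain the cutting back of broken ends. Of 12 genes of alternative end joining and resection, which compete with NHEJ for ends, 9 were higher and 0 lower, with a median of 0.74, led by Parp1 (1.68, edgeR adjusted p = 2.44e-16), Lig1 (1.35, edgeR adjusted p = 4.47e-09) and the exonuclease gene Exo1 (2.56, edgeR adjusted p = 1.28e-08). The 10 NHEJ genes in the same comparison had a median of 0.13, and the 18 cycling genes, all higher, one of 1.08. At 4F.D/KO day 4 without VC, 1 pathway choice gene was higher and 1 lower, and 3 alternative end joining genes were higher and 0 lower, both lists with a median of 0.13. Over all genes tested, 18.3% were higher and 18.7% lower there. At 4F.WT day 4 plus VC, the counts of higher and lower genes were 3 and 0 for the accessory list, 6 and 2 for pathway choice and 5 and 2 for alternative end joining, against 22.7% and 22% of all genes.

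By likeness of mean log2 level over the 12 reprogramming groups, the gene closest to Xrcc6 was Acot1 (r = 0.97), to Xrcc5 Mindy1 (0.959), to Prkdc Ahdc1 (0.944), to Dclre1c Nfkbid (0.953) and to Xrcc4 Tmem128 (0.935). The closest to Lig4 was Bmp2k (0.985), to Nhej1 Spaca1 (0.93), to Paxx Tcf3 (0.928) and to Poll Thy1 (0.926), and the gene closest to Polm has no symbol (0.925). No NHEJ gene was the closest of another. Within the 10, Xrcc4 and Lig4, whose proteins bind each other, correlated at 0.445, and the lowest pair was Dclre1c and Lig4 at -0.738.

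VC alone was compared at day 0, without doxycycline, within each line. In 4F.D/KO, 3 were higher and 1 lower, against 12.1% and 14% of all genes (2 and 2 with library totals). Dclre1c rose from 1.934, 3.226 and 1.297 CPM to 5.892, 3.841 and 5.543, with no overlap (1.24 ± 0.264 on the log2 scale, edgeR adjusted p = 4.12e-04). Polm rose by 0.67 ± 0.165 (edgeR adjusted p = 0.00198) and Nhej1 by 0.68 ± 0.248 (edgeR adjusted p = 0.0408), the latter with overlapping groups and lost without day 0 replicate 1 or 2 or day 0 plus VC replicate 2 or 3 (edgeR adjusted p up to 0.222), without the low-count filter (edgeR adjusted p = 0.0897), in a fit of only the groups compared (edgeR adjusted p = 0.144) or with library totals (edgeR adjusted p = 0.119). Xrcc6 was called higher without day 0 replicate 1 (edgeR adjusted p = 0.0201) and Paxx lower without day 0 plus VC replicate 1 (edgeR adjusted p = 0.0254). Prkdc fell by 0.84 on the log2 scale (SE 0.176, edgeR adjusted p = 3.35e-04), from 21.08 to 24.75 CPM down to 11.59 to 15.44. In 4F.WT, 0 were higher and 1 lower, against 15.1% and 14.4%. Paxx went from 15.24, 18.21 and 11.9 CPM to 10.8, 9.83 and 8.165 without overlap (-0.65 ± 0.227, edgeR adjusted p = 0.0271). That call was lost without day 0 replicate 1 or 2 or day 0 plus VC replicate 2 or 3 (edgeR adjusted p up to 0.152). Scaled by library totals, 4 members were lower in 4F.WT, where 6527 of 15832 genes were then called, with a median over all genes of -0.29. In 4F.D/KO that scaling called 5316, with a median of -0.18. Dclre1c, Polm and Prkdc had log2 changes of -0.15, -0.00 and -0.14 in 4F.WT, and the difference between the lines was not tested. With VC, the summed fibroblast markers were between 176000 and 243000 CPM in 4F.D/KO, against 70400 to 111000 without it, and between 148000 and 163000 in 4F.WT, against 46300 to 47800. Endothelial markers summed to 180 to 217 CPM with VC in 4F.D/KO, against 512 to 599 without it, and to 4.67 to 7.08 in 4F.WT, against 14.4 to 17.2. Muscle markers summed to 40.3 to 49.1 CPM with VC in 4F.WT, against 14.1 to 17.4, and the groups overlapped in 4F.D/KO. Schwann cell markers summed to 1.36 to 2.86 CPM with VC in 4F.D/KO, against 3.77 to 5.69, and to 0.948 to 1.17 in 4F.WT, against 3.22 to 3.38. Cycling genes were higher in 2 of 18 in 4F.D/KO and in 16 of 18 in 4F.WT. The part of these lists in these values was not tested.

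Between the lines at day 0, 2 members were higher in 4F.D/KO and 2 lower, against 22.1% and 21.1% of all genes. Dclre1c was at 1.934, 3.226 and 1.297 CPM in 4F.D/KO and at 5.744, 5.854 and 6.588 in 4F.WT, groups far apart (-1.49 ± 0.258, edgeR adjusted p = 1.48e-05). Lig4 was higher in 4F.D/KO, at 14.31, 12.02 and 12.32 against 8.782, 9.399 and 8.529 (0.53 ± 0.162, edgeR adjusted p = 0.00768). Prkdc (0.42 ± 0.170, edgeR adjusted p = 0.0459) and Xrcc5 (-0.26 ± 0.105, edgeR adjusted p = 0.0464) were near the threshold: the Xrcc5 call was lost without any 1 of the 6 libraries (edgeR adjusted p = 0.0738 to 0.17) and without the low-count filter (edgeR adjusted p = 0.245), and the Prkdc call without replicate 2 or 3 of either line (edgeR adjusted p up to 0.159). Paxx was called lower without 4F.D/KO day 0 replicate 1 (edgeR adjusted p = 0.0302). With library totals 0 were higher and 4 lower, the Lig4 difference being 0.33 (edgeR adjusted p = 0.103). That scaling called 7257 of 15832 genes, with a median log2 difference over all genes of -0.22. At day 0, 16 of 18 cycling genes were higher in 4F.D/KO, and endothelial markers summed to 512 to 599 CPM there against 14.4 to 17.2 in 4F.WT. Fibroblast markers summed to 70400 to 111000 CPM against 46300 to 47800, immune markers to 4.71 to 8.19 against 15.7 to 35.2, muscle markers to 33.1 to 79.9 against 14.1 to 17.4, and epithelial markers to 3.09 to 5.13 against 0.552 to 1.02. Mitochondrial genes took 0.257 to 0.722% of counts in 4F.D/KO and 0.888 to 1.05% in 4F.WT. The part of these lists and of this share was not tested.

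In the inhibitor table the untreated D/KO cells were compared with WT cells of another age. Of the 10, 1 was higher and 2 lower, against 17.9% and 16.6% of all genes. Paxx was at 11.75, 9.513 and 11.69 CPM in D/KO and at 43.09, 35.93 and 50.25 in WT, the largest difference of any member in any comparison (-1.97 ± 0.241, edgeR adjusted p = 1.32e-06). Polm was at 6.515, 8.342 and 8.912 CPM against 12.9, 16.32 and 11.57 (-0.78 ± 0.240, edgeR adjusted p = 0.0149), a call lost without WT control replicate 2 or D/KO control replicate 1 (edgeR adjusted p up to 0.077). Lig4 was higher in D/KO, at 12.01, 11.51 and 11.75 CPM against 6.635, 9.534 and 7.496, with no overlap (0.58 ± 0.128, edgeR adjusted p = 0.00125). The Lig4 values of this pair and of the day 0 pair above come from separate cells and tables and have the same sign, whereas Dclre1c, far lower in 4F.D/KO, was 0.66 higher in D/KO (edgeR adjusted p = 0.212). Xrcc4 was called lower in D/KO in a fit of only the groups compared (-0.60, edgeR adjusted p = 0.0167). Endothelial markers summed to 240 to 288 CPM in D/KO against 57.7 to 75.8 in WT, epithelial markers to 0.781 to 1.3 against 11.5 to 13.8, muscle markers to 28.5 to 34.9 against 16.1 to 21.3, Schwann cell markers to 7.38 to 10.1 against 3.99 to 4.7 and cycling genes to 285 to 295 against 226 to 248. Their part was not tested.

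WT skin fibroblasts differed from WT tail tip fibroblasts in 3 members, 1 higher and 2 lower, against 18.1% and 16.1% (0 and 2 with library totals). Library totals called 5785 of 15652 genes, with a median log2 difference over all genes of -0.13. Xrcc5 was at 16.04, 10.92 and 13.18 CPM in skin and at 21.92, 21.47 and 22.24 in tail tip (-0.71 ± 0.123, edgeR adjusted p = 1.12e-04). Xrcc6 was at 18.77, 22.31 and 22.2 against 20.24, 19.26 and 17.83 CPM, overlapping, and the ratio of Xrcc5 to Xrcc6 per length was 1.13 ± 0.33 (SD, n = 3) in skin against 2.02 in tail tip. Paxx was lower in skin, at 20.6, 14.62 and 13.3 CPM (-1.41 ± 0.235, edgeR adjusted p = 7.13e-05). Lig4 was higher at 10.28, 10.03 and 10.74 CPM (0.39 ± 0.128, edgeR adjusted p = 0.0216), a call lost without tail tip replicate 1 or 3 or skin replicate 3 (edgeR adjusted p up to 0.143), with library totals (edgeR adjusted p = 0.172), without the low-count filter (edgeR adjusted p = 0.165) and in a fit of only the groups compared (edgeR adjusted p = 0.227). Without skin replicate 1, Xrcc4 (edgeR adjusted p = 0.00739) and Nhej1 (edgeR adjusted p = 0.0495) were also called lower. Xrcc6, Prkdc, Dclre1c, Poll and Polm were not called, with changes from -0.20 to 0.14. Of 18 cycling genes, 17 were higher in skin. Muscle markers summed to 108 to 143 CPM in skin against 16.1 to 21.3 in tail tip, endothelial markers to 116 to 209 against 57.7 to 75.8, immune markers to 13 to 15.3 against 3.28 to 5.15 and Schwann cell markers to 11.4 to 12.3 against 3.99 to 4.7. Lower in skin were epithelial markers, at 2.43 to 4.16 CPM against 11.5 to 13.8, and melanocyte markers, at 1.56 to 2.29 against 3.58 to 4.38. Mitochondrial genes took 0.579 to 0.72% of counts in skin against 0.81 to 0.923%. The part of these lists and of this share was not tested.

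With inhibitors of TGFb signalling, the question was how D/KO cells without the cassette changed in 3 days. In the main fit Xrcc6 and Lig4 were called lower with Repsox, Vactosertib and A83-01, and Paxx higher with Vactosertib and A83-01. Each of these changes was less than a factor of 2. Several of the calls were lost with library totals, without the low-count filter or without single libraries, as given below. With DMH-1 the 3 genes changed in the same directions without being called. With Repsox, 0 members were higher and 2 lower, against 11% and 9.73% of all genes (1 and 1 with library totals). With Vactosertib, 1 was higher and 2 lower, against 9.37% and 8.7% (1 and 1). With A83-01, 1 was higher and 2 lower, against 13.6% and 13.9% (1 and 0). With DMH-1, 0 were called by edgeR and by DESeq2, against 4.35% and 2.9%, and 1, Paxx, had an unadjusted p under 0.05. Library totals called 3478 of 15652 genes with Repsox, 3074 with Vactosertib and 4647 with A83-01. The medians over all genes were then 0.14, 0.12 and 0.15. The 4 comparisons share the control libraries.

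Xrcc6 was at 20.01, 19.56 and 19.18 CPM in control D/KO cells. It was at 13.52, 15.57 and 13.22 with Repsox (-0.47 ± 0.103, edgeR adjusted p = 0.00187), and at 14.87, 14.6 and 14.68 with Vactosertib (-0.41 ± 0.103, edgeR adjusted p = 0.00701). With A83-01 it was at 16.81, 15.96 and 15.19 (-0.29 ± 0.102, edgeR adjusted p = 0.037), a call lost without any 1 of the 6 libraries (edgeR adjusted p = 0.0521 to 0.135), and with DMH-1 at 16.26, 16.89 and 18.58 (-0.18, edgeR adjusted p = 0.350). All treated libraries were below all control libraries. With library totals, Xrcc6 was not called with Vactosertib (-0.29, edgeR adjusted p = 0.0506) or A83-01 (-0.14, edgeR adjusted p = 0.338). Without the low-count filter it was called with none of the 3 (edgeR adjusted p = 0.0625 with Repsox, 0.142 with Vactosertib and 0.348 with A83-01). Xrcc5 did not pass the test with any inhibitor, and its control level of 18.93 to 21.29 CPM overlapped 3 of the 4 treated groups. The Xrcc5 to Xrcc6 ratio per length, given without a test, was 1.77 ± 0.0874 (SD, n = 3) in controls, 2.31 ± 0.136 with Repsox, 2.38 ± 0.103 with Vactosertib, 2.2 ± 0.337 with DMH-1 and 2 ± 0.167 with A83-01.

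Lig4 was at 12.01, 11.51 and 11.75 CPM in controls, and at 8.722, 8.043 and 8.834 with Repsox (-0.46 ± 0.127, edgeR adjusted p = 0.0121). It was at 8.172, 8.812 and 7.886 with Vactosertib (-0.50 ± 0.128, edgeR adjusted p = 0.00817) and at 10.04, 7.673 and 8.206 with A83-01 (-0.44 ± 0.127, edgeR adjusted p = 0.0115), a call lost without A83-01 replicate 2 or 3 (edgeR adjusted p up to 0.0718). DMH-1 libraries, at 10.56, 11.2 and 10.81, lay closest to the controls (-0.11, edgeR adjusted p = 0.725). With library totals, Lig4 was not called with Repsox (-0.34, edgeR adjusted p = 0.0606) or A83-01 (-0.29, edgeR adjusted p = 0.0952), and without the low-count filter it was called with none of the 3 (edgeR adjusted p = 0.139 with Repsox, 0.0983 with Vactosertib and 0.128 with A83-01). Paxx was at 11.75, 9.513 and 11.69 CPM in controls and at 22.62, 15.84 and 19.04 with A83-01 (0.80 ± 0.236, edgeR adjusted p = 0.0138), a call lost without control replicate 2 or A83-01 replicate 1 (edgeR adjusted p up to 0.0725). With Vactosertib it was at 14.73, 15.32 and 23.4 (0.70 ± 0.237, edgeR adjusted p = 0.0466), a call lost without any 1 of the controls or without Vactosertib replicate 3 (edgeR adjusted p up to 0.272). Repsox gave 0.56 (edgeR adjusted p = 0.103) and DMH-1 0.55 (edgeR adjusted p = 0.201, or 0.0379 in a fit of only the groups compared), with every treated library above the controls, and with library totals the Repsox value was 0.69 and called (edgeR adjusted p = 0.0477). Prkdc, Dclre1c, Xrcc4, Nhej1, Poll and Polm were called with no inhibitor, with log2 fold changes from -0.45 to 0.34.

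**Figure D5:**
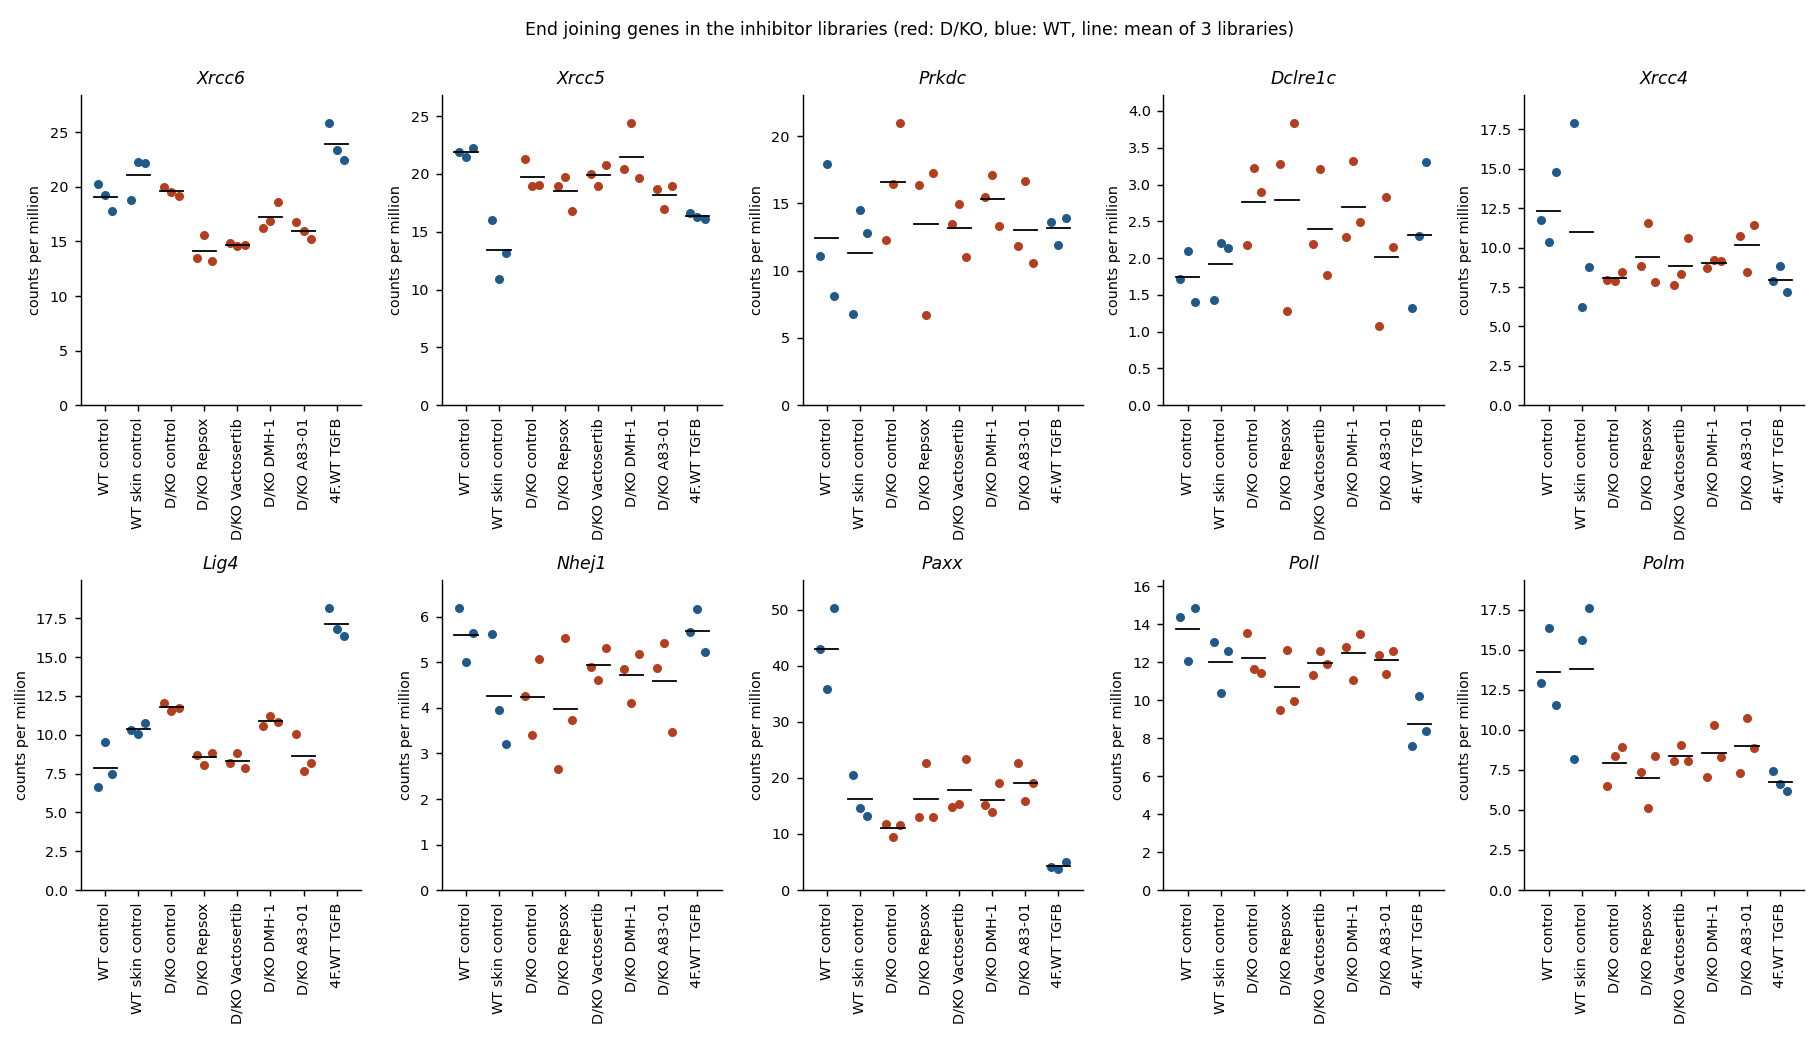
TMM-scaled CPM of each NHEJ gene in the 24 inhibitor libraries, D/KO red and WT blue, with a line at the mean of 3 libraries. Xrcc6 in the D/KO groups is highest in the controls, 19.18 to 20.01, and Paxx is highest in WT tail tip cells, 35.93 to 50.25.

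Compounds were compared directly where they shared a dose, in 2 pairs. The first pair was the ALK5 inhibitor Repsox and Vactosertib, which inhibits ALK5 and ALK2, both at the lower dose. Between them 0 members differed by edgeR and by DESeq2 and 0 had an unadjusted p under 0.05, against 0% of all genes in either direction. The difference was -0.06 for Xrcc6 (95% interval -0.28 to 0.15), 0.04 for Lig4 (-0.23 to 0.31) and -0.13 for Paxx (-0.62 to 0.35) on the log2 scale. Between A83-01 and the ALK2 inhibitor DMH-1, both at the higher dose, 0 were called by edgeR and by DESeq2, against 9.67% and 10.8%, and 1, Lig4, had an unadjusted p under 0.05. Lig4 was lower with A83-01 by value, with a difference of -0.33 (95% interval -0.59 to -0.07, edgeR adjusted p = 0.0716, or 0.028 without A83-01 replicate 1). The intervals for Xrcc6 (-0.32 to 0.10) and Paxx (-0.23 to 0.74) include 0 and do not show that the compounds act alike. The other 7 members differed by -0.31 to 0.22 in the first pair and by -0.42 to 0.18 in the second.

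Beside these values, cycling genes were lower in 5 of 18 with Repsox, 9 with Vactosertib, 5 with DMH-1 and 14 with A83-01, where their median was -1.14. Of all genes tested, 11% were higher and 9.73% lower with Repsox, and 9.37% and 8.7% with Vactosertib. The shares were 4.35% and 2.9% with DMH-1 and 13.6% and 13.9% with A83-01. Summed fibroblast markers were between 72200 and 78400 CPM in controls, 32000 and 41600 with Repsox, 42100 and 45700 with Vactosertib, 35900 and 38100 with A83-01, and, overlapping the controls, 62100 and 80000 with DMH-1. Schwann cell markers summed to 7.38 to 10.1 CPM in controls, 19.7 to 22.9 with Repsox, 14.8 to 21.5 with Vactosertib, 12.3 to 15.3 with DMH-1 and 33.1 to 42.2 with A83-01. Endothelial markers summed to 240 to 288 CPM in controls and 106 to 143 with A83-01, and with the other inhibitors their range overlapped the controls. Muscle markers summed to 28.5 to 34.9 CPM in controls, 15.2 to 24 with Repsox, 15.6 to 17.7 with Vactosertib, 13.6 to 20 with DMH-1 and 11.5 to 14.5 with A83-01. Mitochondrial genes took 0.511 to 0.909% of counts in controls, 1.13 to 1.45% with Repsox, 1.11 to 1.21% with Vactosertib, 1.1 to 1.29% with A83-01 and 0.392 to 0.768% with DMH-1. The part of any of these in the Xrcc6, Lig4 and Paxx values was not tested. Of the tested NHEJ accessory genes, 0 were called with any of the 4 inhibitors. With A83-01 the smallest p values in that list belonged to Aptx (0.31, edgeR adjusted p = 0.0813), Tdp1 (-0.18, edgeR adjusted p = 0.239) and Cyren (-0.37, edgeR adjusted p = 0.335). Of the pathway choice genes, A83-01 lowered 1, the histone gene H2ax (-0.59, edgeR adjusted p = 0.0234), while Mad2l2 (0.25, edgeR adjusted p = 0.411) and Shld1 (0.39, edgeR adjusted p = 0.434) were not called. Of the alternative end joining genes, A83-01 raised 1, the scaffold gene Xrcc1 (0.51, edgeR adjusted p = 0.00127), and lowered 3, with Rbbp8 (-0.51, edgeR adjusted p = 0.00626), which starts resection, and Exo1 (-1.42, edgeR adjusted p = 0.00656) having the smallest p. Over all genes tested, A83-01 raised 13.6% and lowered 13.9%.

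The 4F.WT TGFB group has no matched control, so its values are given without a test. Xrcc6 was at 22.46 to 25.81 CPM there and Lig4 at 16.37 to 18.13, above every library of the 3 control groups of that table, which reached 22.31 and 12.01. Paxx was at 3.734 to 5.089 and Poll at 7.594 to 10.23, below every control library, whose lowest values were 9.513 and 10.37. Thus 2 of the 10 lay above and 2 below all controls, against 20% and 20.5% of all genes tested. Muscle markers summed to 1710 to 2060 CPM in that group, against 16.1 to 21.3 in WT tail tip, 108 to 143 in WT skin and 28.5 to 34.9 in D/KO controls. Endothelial markers summed to 0.968 to 1.83 CPM (controls at least 57.7), Schwann cell markers to 0.963 to 1.61 (at least 3.99) and cycling genes to 145 to 153 (at least 226). Fibroblast, epithelial and melanocyte sums were also below all controls, and immune markers were not. Mitochondrial genes took 1.17 to 1.37% of counts, against at most 0.923%. The part of these was not tested.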

How the data were processed

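Poly(A) RNA was sequenced by a service company as 150 base paired-end reads, which the authors trimmed with TrimGalore, aligned with Hisat2 to GRCm39 and counted with featureCounts. Tool versions, annotation release, strandedness and the handling of multimapping reads are not given in the sources used here. The deposited files hold raw, unnormalized counts for each gene, in 2 tables of 36 and 24 libraries. Identifiers were paired with GENCODE M39 symbols (98.7% of 56980). Each table was fitted once in edgeR 4.0.16 (R 4.3.3) with TMM scaling, filterByExpr (minimum count 10, minimum total 15) and the quasi-likelihood F-test, which tested 15832 and 15652 genes, with Benjamini-Hochberg adjustment per comparison over all of them and calls at 0.05. DESeq2 1.42.0, the tool of the authors, was an alternative. Other alternatives were library totals, no filter, a stricter filter, fits of only the groups compared, a day 0 baseline without VC (for the line differences added after seeing the data), and leaving out each library. CPM are TMM-scaled, and CPM per kilobase divides by the exon length given in the tables. The genes to be named were all 10 in every comparison, and those not called are in part given as counts or ranges. Of each neighbouring list, the 3 tested genes with the smallest p at 4F.D/KO day 4 plus VC and with A83-01 are named, except 1 gene that is not reported here, and for likeness the gene with the highest Pearson r. Libraries of a group differed by more than counting noise (median variance ratio 13.7 and 26), so no pair was treated as 1 library deposited again, which does not show that they were separate cultures. Scripts were tested on simulated counts. The genes and lists were chosen with earlier results of these data known.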

Additional observations from a re-analysis of the deposited data

Results flagged for a closer look

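Changes that differed between the lines by the interaction test are listed as 4F.D/KO minus 4F.WT on the log2 scale, and genotype, sex, age and line cannot be told apart in any of them. Xrcc5 differed by 0.47 at day 4, by 0.54 at day 2 plus VC and by 0.79 at day 4 plus VC. Xrcc6 differed by 0.60 at day 2 plus VC. The Xrcc5 call was kept in 7 of 12 fits that each left out 1 library at day 4 and in 11 of 12 at day 2 plus VC, and that of Xrcc6 in 12 of 12. Without the low-count filter the Xrcc5 calls at day 4 and day 2 plus VC and the Xrcc6 call were lost (edgeR adjusted p = 0.165, 0.0963 and 0.0524). Polm differed by -1.33 at day 2 plus VC and by -1.41 at day 4 plus VC, and its 4F.D/KO day 0 plus VC libraries, at 12.13 to 16.77 CPM, were above the 7.966 to 10.01 CPM of 4F.WT. Dclre1c differed by -1.02 and Xrcc4 by 0.70 at day 4 plus VC, calls kept in 8 and 4 of 12 fits that each left out 1 library. With day 0 without VC as the baseline, chosen after seeing the data, Dclre1c differed by 0.37 (edgeR adjusted p = 0.515) and Polm by -0.73 (edgeR adjusted p = 0.0199) at day 4 plus VC.

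The 4F.WT TGFB group, which enters no comparison, had its lowest library at 22.5 CPM for Xrcc6 and at 16.4 CPM for Lig4, both above the highest control library of that table.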

How the results depend on the processing

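No paired analysis was possible because the sample numbers in the labels run through each table and no group shares a replicate number with another. The counts of called members stayed within 1.5 times the values above with DESeq2 and with its size factors in all 23 comparisons. Without the low-count filter 1 member was called at 4F.D/KO day 2 and 3 at day 4 plus VC. For the line difference, 0 were then called at day 4 and 1 at day 2 plus VC. With inhibitors, 0 were then called with Repsox, 1 with Vactosertib and 1 with A83-01. Fits of only the groups compared called 1 at 4F.D/KO day 2, 3 at day 4 plus VC, 4 at 4F.WT day 4 and 1 with DMH-1. Library totals, which shift the median of all genes by -0.29 to 0.38, called 2 at 4F.D/KO day 4, 7 at 4F.WT day 4 plus VC, 1 for the line difference at day 2, 4 for VC in 4F.WT and 1 with A83-01. At least 10 counts in every library gave 5 at 4F.WT day 4 plus VC, and so did the day 0 baseline without VC, 4 higher and 1 lower. That baseline reversed Dclre1c in 4F.D/KO (0.99 and 0.78 at day 2 and day 4 plus VC) and Polm (0.23 at day 4 plus VC), and the Dclre1c line difference at day 4 plus VC (0.37, a test added after seeing the data). Raw counts without length gave subunit ratios at 4F.D/KO day 0 of 1.08 for Xrcc5 to Xrcc6 (1.9 per length) and 0.703 for Xrcc4 to Lig4 (0.867). The cause of the shifts in called members and in direction was not tested.

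Leaving out each library in turn, members called ranged from 0 to 3 at 4F.D/KO day 2, 1 to 1 at day 4, 4 to 5 at day 2 plus VC and 3 to 6 at day 4 plus VC. In 4F.WT they ranged from 0 to 0 at day 2, 1 to 2 at day 4, 3 to 5 at day 2 plus VC and 3 to 3 at day 4 plus VC. For the line differences the ranges were 0 to 0, 0 to 2, 2 to 3 and 2 to 4 in the same order. They were 3 to 5 for VC in 4F.D/KO, 0 to 1 for VC in 4F.WT and 2 to 4 between lines at day 0. With inhibitors they were 2 to 2 for Repsox, 2 to 3 for Vactosertib, 0 to 0 for DMH-1, 1 to 2 for A83-01, 0 to 0 for Repsox against Vactosertib and 0 to 1 for A83-01 against DMH-1. They were 2 to 3 for control D/KO against WT and 2 to 5 for skin, the 5 without WT skin replicate 1. With 3 libraries a group and Dclre1c at 22 to 161 counts, changes of the size of its standard error were not detectable.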
